A study of Mus musculus with 8 samples.

Results

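Transcripts of 45 genes of skeletal muscle contraction were followed through 8 mouse tumours. The set was given as a list of gene symbols, all 45 were found among the 55450 genes of the count table, and all 45 passed the count filter that left 16911 genes for testing. It holds 11 genes of the thick filament and M-line, 8 of the thin filament and its troponins, 13 of the Z-disc, titin and the cytoskeleton, 9 of excitation-contraction coupling and calcium handling, and 4 of energy supply. The genes were selected on their expression differences in these tumours, between the treatment arms and between responders and non-responders. Their values in those comparisons are therefore a description, and no test on them is read as evidence.

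The tumours were grown from MOC1 cells, a mouse oral squamous cell carcinoma line, in the flank of C57BL/6 hosts, whose immune system is intact. Every host received anti-PD-1, an antibody that blocks the checkpoint receptor PD-1, and tumours were taken after 32 days of treatment. Each host was also given ASOs (antisense oligonucleotides, synthetic strands that pair with a chosen RNA and lower it). In 3 hosts these were control ASOs (controls 1 to 3) and in 5 they were directed at Smyd3, which encodes a lysine methyltransferase. Of the 5 Smyd3 ASO tumours, the labels call 2 responders (numbered 1 and 3) and 2 non-responders (numbered here in listing order), and 1, numbered 2, has no response mark. No group without anti-PD-1 was analysed here, host age and sex are not given in the sources used here, and the labels do not say whether all hosts were treated side by side. The labels name the tissue after the line's origin in the tongue although the tumours grew in the flank. Bulk tumour tissue was sequenced, so transcripts of MOC1 cells and of host tissue were counted together, and p-values measure only the spread between these 8 samples.

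As background, a muscle fibre shortens when myosin of the thick filaments pulls on actin of the thin filaments within the sarcomere, which is anchored at the Z-disc and the M-line and spanned by titin. Depolarisation is sensed by the dihydropyridine receptor in the transverse tubule, which opens the ryanodine receptor of the sarcoplasmic reticulum. The released calcium binds troponin and frees actin for myosin, and calcium pumps end the contraction. Mouse limb and trunk muscles are mostly fast fibres, which use the myosin heavy chains Myh4 (type IIb), Myh1 (type IIx) and Myh2 (type IIa) and fast troponins, while slow fibres use Myh7 and slow troponins. Carcinoma cells are epithelial and do not build sarcomeres.

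Libraries held 22103853.1 to 27258700.1 expected counts, with TMM factors of 0.9638 to 1.04, so depth differed little between the groups. CPM below is the count scaled to a common library size with TMM. Smyd3 itself stood at 10.7, 11.9 and 10.6 CPM in the controls, 8.68, 4.58 and 4.38 CPM in responder 1, the unmarked tumour and responder 3, and 9.26 and 4.88 CPM in the non-responders, each Smyd3 ASO tumour lying below each control. The basal keratins Krt14 and Krt5, markers of squamous carcinoma, were abundant in every tumour, and the 8 carcinoma markers summed to 30076 to 36164 CPM in the controls and 20291 to 42174 CPM in the Smyd3 ASO tumours.

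Muscle transcripts were scarce in the control tumours and far more abundant in all Smyd3 ASO tumours. The 45 genes took 0.01628%, 0.01154% and 0.02183% of the counts in controls 1 to 3. They took 0.3853% in responder 1, 0.7422% in the unmarked tumour, 1.695% in responder 3, and 0.1059% and 0.1622% in the non-responders. The arms did not overlap, since the lowest Smyd3 ASO tumour, non-responder 1, was 4.851 times the highest control, and the spread within the Smyd3 ASO arm was 16.01-fold (control mean 0.01655 ± 0.00515%, SD, n = 3; Smyd3 ASO mean 0.6181 ± 0.6518%, SD, n = 5). In whole tissue, fewer muscle cells and less muscle RNA per cell cannot be told apart.

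All 45 genes had a log2 fold change above 0 for Smyd3 ASO against control ASO, from 0.19 to 8.81 with a median of 5.44, beside a median of 0.01 over all genes tested. The median ratio of mean CPM was 43.9, with 44 genes above 2-fold, 34 above 10-fold and 11 above 100-fold. In 39 genes every Smyd3 ASO tumour lay above every control, which held for 5.45% of all genes tested. The 6 that overlapped were Myh7, Tnni1, Tnnc1, Fhl1, Cryab and Myoz2. By edgeR's quasi-likelihood test 0 of the 45 passed a Benjamini-Hochberg FDR of 0.05, as did 0% of all genes. At an unadjusted p under 0.05, 42 were higher (8.55% of all genes), and DESeq2 called 41 higher (3.95% of all genes). Without non-responder 1 edgeR called 26 of the 45, and 258 of all 16868 genes then tested. The contrast helped to choose the genes, so these counts describe how the tumours spread and nothing is read from them.

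**Figure D1:**
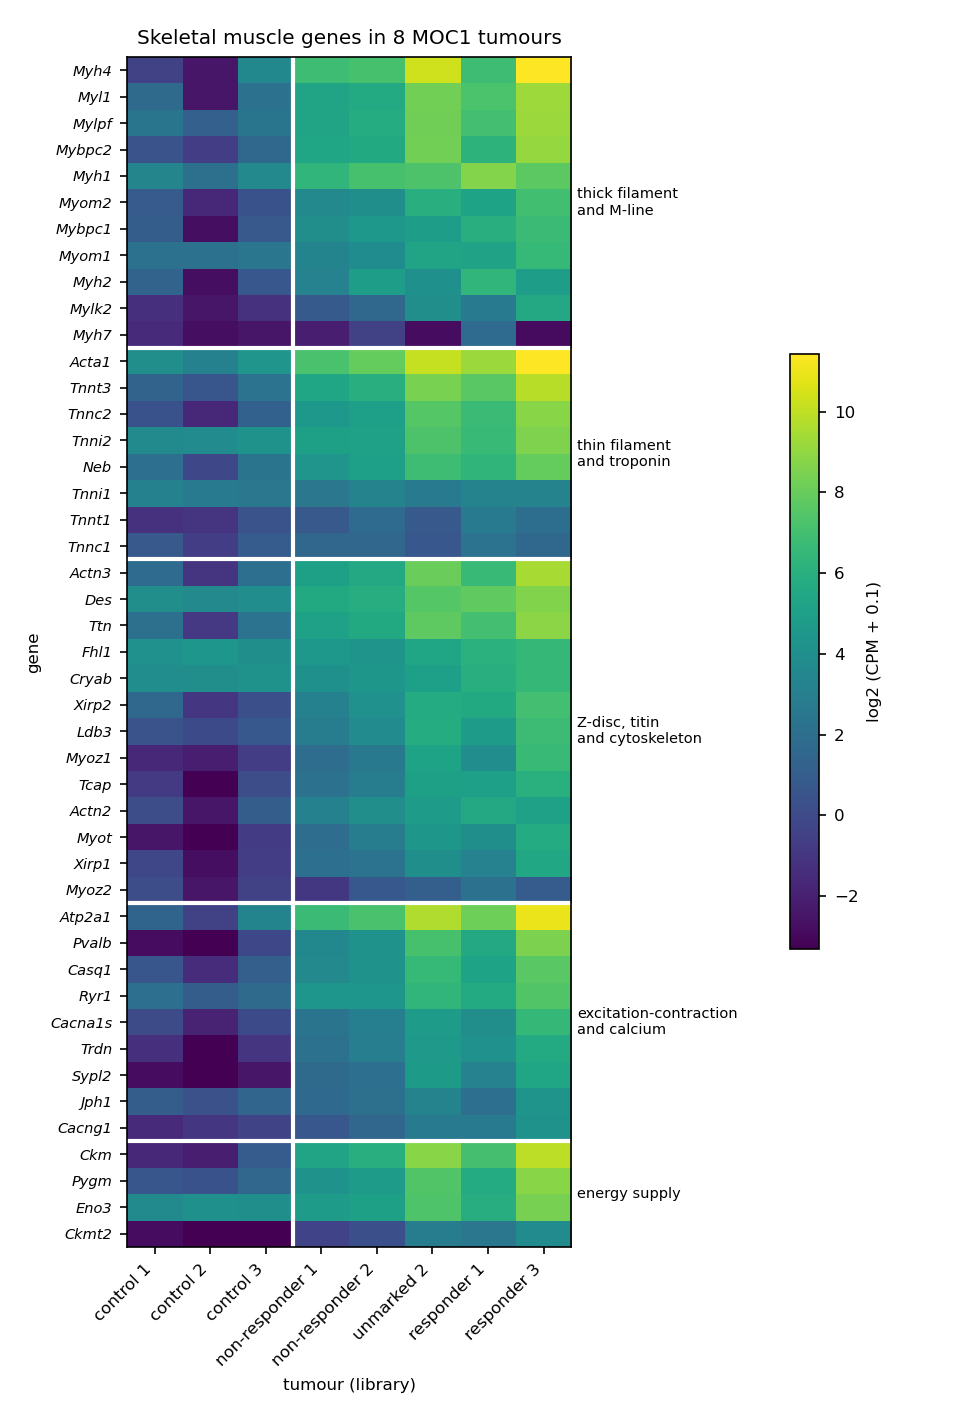
Levels of the 45 skeletal muscle genes (rows, by role) in the 8 tumours (columns), as log2 CPM with a small pseudocount, from dark (low) to bright (high). The 3 control columns are mostly dark and the non-responder columns mostly intermediate. Responder 3 is the highest column in 37 of the 45 genes, responder 1 in 7, Myh7 among them, and non-responder 2 in 1 (Tnni1).

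The tumours had a similar order in most of the genes, though not in all. Responder 3 had the highest value of all tumours in 37 of the 45 genes, responder 1 in 7 and non-responder 2 in 1 (Tnni1). Non-responder 1 was the lowest of the 5 Smyd3 ASO tumours in 40, and control 2 the lowest control in 37. The full order responder 3, unmarked, responder 1, non-responder 2, non-responder 1 held in 30 genes. The tumour without a response mark lay above both non-responders in 40 genes and above responder 1 in 32. Non-responder 2 exceeded non-responder 1 in 44 genes by a modest step (1.532 times in summed share), and both non-responders lay above every control in 40. The share of all genes with these orders was not counted, so the counts only describe the tumours. In the controls 15 of the 45 genes had a mean under 1 CPM and 6 a mean over 10 CPM.

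Responders and non-responders were compared within the Smyd3 ASO arm, a grouping by outcome and not by allocation. All 45 log2 fold changes were again above 0, from 0.32 to 3.76 with a median of 2.69, beside 0.01 over all genes tested. The median ratio of means was 6.45, with 43 genes above 2-fold and 9 above 10-fold. Both responders lay above both non-responders in 40 genes, where 20.3% of all genes tested did so, and the 5 that overlapped were Myh4, Myh2, Myh7, Tnni1 and Jph1. By edgeR 0 of the 45 passed FDR 0.05 (0% of all genes), 36 were higher at an unadjusted p under 0.05 (4.74% of all genes) and DESeq2 called 18 higher (0.94% of all genes). Much of the size rested on 1 tumour: without responder 3 the median log2 fold change was 1.58, and without responder 1 it was 3.41 and edgeR called 6 of the 44 genes then tested, and 21 of all 16733. This grouping too was known when the genes were chosen.

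**Figure D2:**
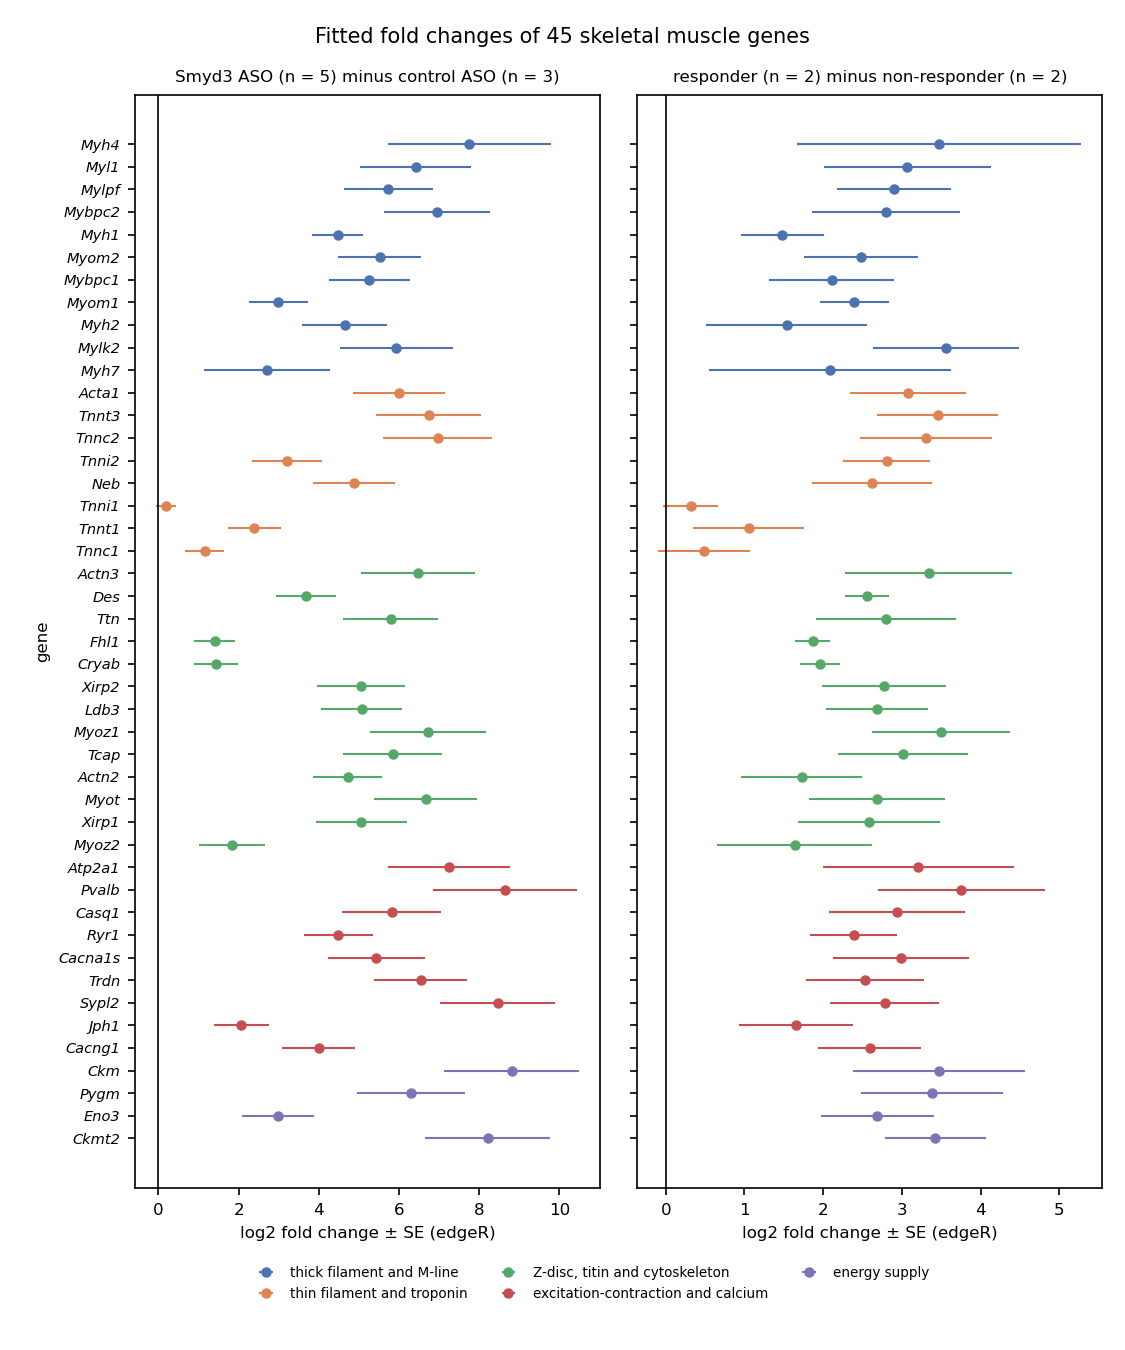
Fitted log2 fold change ± SE (edgeR) of each of the 45 genes, for Smyd3 ASO (n = 5) minus control ASO (n = 3) on the left and responder (n = 2) minus non-responder (n = 2) on the right, coloured by role. All points lie right of 0; Ckm has the largest difference between arms at 8.81 and Tnni1 the smallest at 0.19.

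Of the 11 genes of the thick filament and M-line, 10 had every Smyd3 ASO tumour above every control (5.45% of all genes). The median log2 fold change was 5.52. Myh4, the myosin heavy chain of the fastest fibres, stood at 0.665, 0.0892 and 11.4 CPM in the controls, at 112, 1312 and 2730.2 CPM in responder 1, the unmarked tumour and responder 3, and at 116 and 139 CPM in the non-responders. It had the largest difference between arms of this group, a log2 fold change of 7.75 (SE 2.03). Control 3 carried far more Myh4 than the other controls, and responder 1 was no higher than the non-responders. Its response log2 fold change of 3.48 (SE 1.80) was −0.18 without responder 3.

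Myl1, the essential light chain of fast fibres, stood at 3.33, 0.0892 and 4.63 CPM in the controls, at 149, 307 and 604 CPM in responder 1, the unmarked tumour and responder 3, and at 39.1 and 50.5 CPM in the non-responders. Mylpf, the fast regulatory light chain, was at 5.196, 2.23 and 5.18 CPM in the controls, at 127, 303 and 591 CPM in responder 1, the unmarked tumour and responder 3, and at 39.2 and 56.8 CPM in the non-responders. Within the Smyd3 ASO arm both light chains followed the order of the summed share, with responder 1 well above the non-responders. Their log2 fold changes between arms were 6.41 (SE 1.38) and 5.73 (SE 1.11). Mybpc2, the fast form of myosin-binding protein C, was at 1.25, 0.535 and 3.11 CPM in the controls, at 73.6, 309 and 548 CPM in responder 1, the unmarked tumour and responder 3, and at 40.2 and 49.2 CPM in the non-responders, a log2 fold change of 6.96 (SE 1.32). Here responder 1 stood less than 2-fold above the non-responders, nearer to them than to responder 3.

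The other heavy chains ran differently. Myh1, the type IIx chain, stood at 10.3, 4.19 and 12.4 CPM in the controls, at 405, 158 and 211 CPM in responder 1, the unmarked tumour and responder 3, and at 81.7 and 139 CPM in the non-responders. It was highest in responder 1, and its log2 fold changes of 4.47 (SE 0.64) between arms and 1.48 (SE 0.53) between responders and non-responders were smaller than those of Myh4. Myh2, the type IIa chain of more oxidative fast fibres, was at 2.49, 0.0446 and 1.47 CPM in the controls, at 84.6, 16.7 and 29.02 CPM in responder 1, the unmarked tumour and responder 3, and at 8.98 and 30.2 CPM in the non-responders, with responder 1 highest and non-responder 2 level with responder 3. Myh7, the slow and cardiac chain, was at 0.249, 0.0446 and 0.0841 CPM in the controls, at 3.41, 0.0388 and 0.0362 CPM in responder 1, the unmarked tumour and responder 3, and at 0.138 and 0.653 CPM in the non-responders. Only responder 1 had Myh7 above 1 CPM, and the unmarked tumour and responder 3, rich in other muscle transcripts, had 1 count each. The remaining 4 genes, the M-line proteins Myom1 and Myom2, Mybpc1 and the kinase Mylk2, had arm log2 fold changes of 2.99 to 5.93, and in each of them the arms did not overlap.

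Among the 8 thin filament genes, 6 separated the arms (5.45% of all genes) and the median log2 fold change was 4.05. Acta1, skeletal muscle alpha-actin, stood at 15.2, 8.78 and 20.9 CPM in the controls, at 594, 1115 and 2665 CPM in responder 1, the unmarked tumour and responder 3, and at 143 and 243 CPM in the non-responders. Per kilobase of exon it was the most abundant of the 45 genes, with a mean of 391 CPM per kilobase over the 8 tumours, ahead of Mylpf at 133 and Tnnc2 at 124. Its log2 fold change was 5.99 (SE 1.15) between arms and 3.08 (SE 0.74) between responders and non-responders. Each Smyd3 ASO tumour exceeded each control, and each responder each non-responder.

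Within the Smyd3 ASO arm the fast troponins followed the order of Acta1. Tnnt3, fast troponin T, which ties the complex to tropomyosin, was at 2.49, 1.43 and 4.75 CPM in the controls, at 201, 356 and 897 CPM in responder 1, the unmarked tumour and responder 3, and at 41.00 and 59.2 CPM in the non-responders. Tnnc2, the calcium-binding fast troponin C, was at 1.21, 0.223 and 2.31 CPM in the controls, at 106, 187 and 441 CPM in responder 1, the unmarked tumour and responder 3, and at 23.1 and 32.3 CPM in the non-responders, and had the largest log2 fold change between arms of this group at 6.97 (SE 1.36). Tnni2, the inhibitory fast troponin I, was at 13.2, 13.9 and 18.3 CPM in the controls, at 102, 156 and 373 CPM in responder 1, the unmarked tumour and responder 3, and at 33.6 and 34.2 CPM in the non-responders. Its controls were already above 13 CPM, so that its log2 fold change was smaller, 3.21 (SE 0.87), although the arms did not overlap.

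The slow troponins differed less between the arms. Tnni1, slow troponin I, was at 8.896, 6.64 and 5.68 CPM in the controls, at 9.37, 6.52 and 9.46 CPM in responder 1, the unmarked tumour and responder 3, and at 5.62 and 9.497 CPM in the non-responders. The groups overlapped fully, and its log2 fold change between arms, 0.19 (SE 0.25), was the smallest of the 45 genes. Tnnt1, slow troponin T, was at 0.333, 0.357 and 1.26 CPM in the controls, at 6.53, 1.63 and 3.99 CPM in responder 1, the unmarked tumour and responder 3, and at 1.66 and 3.398 CPM in the non-responders, with responder 1 highest and the arms apart by a narrow margin. Tnnc1, troponin C of slow and cardiac muscle, was at 1.62, 0.535 and 1.85 CPM in the controls, at 4.83, 1.51 and 3.04 CPM in responder 1, the unmarked tumour and responder 3, and at 2.76 and 2.83 CPM in the non-responders, and the unmarked tumour lay inside the control range. Nebulin (Neb), the ruler protein along the thin filament and the last gene of the group, had an arm log2 fold change of 4.88 with no overlap between arms.

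In the group of the Z-disc, titin and the cytoskeleton, 10 of 13 genes separated the arms (5.45% of all genes). All 13 separated responders from non-responders (20.3% of all genes). The median log2 fold changes were 5.06 and 2.68. Actn3, the alpha-actinin of fast fibres that crosslinks actin at the Z-disc, stood at 3.41, 0.357 and 3.997 CPM in the controls, at 102, 267 and 712 CPM in responder 1, the unmarked tumour and responder 3, and at 32.5 and 47.8 CPM in the non-responders. Ttn, which encodes the giant spring protein titin, was at 4.28, 0.446 and 4.796 CPM in the controls, at 129, 219 and 454 CPM in responder 1, the unmarked tumour and responder 3, and at 34.4 and 49.7 CPM in the non-responders. Both had non-responder 1 as the lowest Smyd3 ASO tumour and responder 3 as the highest, with log2 fold changes between arms of 6.48 (SE 1.42) and 5.80 (SE 1.182). Myoz1, a calcineurin-binding Z-disc protein of fast fibres, was at 0.208, 0.134 and 0.547 CPM in the controls, at 14.9, 36.7 and 97.5 CPM in responder 1, the unmarked tumour and responder 3, and at 3.82 and 6.099 CPM in the non-responders, and its log2 fold change of 6.71 (SE 1.44) was the largest of the group.

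Other genes of this group were well above 0 in the controls. Des, the intermediate filament desmin found in smooth as well as skeletal muscle, was at 15.7, 12.3 and 14.8 CPM in the controls, at 229, 181 and 398 CPM in responder 1, the unmarked tumour and responder 3, and at 48.9 and 57.5 CPM in the non-responders. Its arms did not overlap, at a log2 fold change of 3.68 (SE 0.76). Fhl1, a LIM protein of striated muscle, was at 17.2, 21.7 and 16.2 CPM in the controls, at 67.1, 41.1 and 91.2 CPM in responder 1, the unmarked tumour and responder 3, and at 23.5 and 19.9 CPM in the non-responders, with non-responder 2 inside the control range and the smallest log2 fold change of the group, 1.40 (SE 0.50). Of the other 8 genes, Cryab, a small heat shock chaperone, and Myoz2, the slow-fibre relative of Myoz1, overlapped between arms (log2 fold changes 1.45 and 1.83). The telethonin gene Tcap, the alpha-actinin gene Actn2, Ldb3, Myot, Xirp1 and Xirp2 did not overlap and ranged from 4.72 to 6.67.

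All 9 genes of excitation-contraction coupling and calcium handling separated the arms (5.45% of all genes), with a median log2 fold change of 5.82. Atp2a1, the SERCA calcium pump of fast fibres, stood at 2.62, 0.624 and 10.1 CPM in the controls, at 283, 824 and 2015 CPM in responder 1, the unmarked tumour and responder 3, and at 106 and 143 CPM in the non-responders. Casq1, which stores calcium in the sarcoplasmic reticulum, was at 1.41, 0.268 and 2.104 CPM in the controls, at 37.2, 94.9 and 196 CPM in responder 1, the unmarked tumour and responder 3, and at 12.02 and 18.4 CPM in the non-responders. Ryr1, the calcium release channel, was at 3.99, 1.96 and 3.32 CPM in the controls, at 50.9, 82.5 and 172 CPM in responder 1, the unmarked tumour and responder 3, and at 21.01 and 21.7 CPM in the non-responders. The pump, the store and the channel thus shared the order of the tumours within the Smyd3 ASO arm. Their log2 fold changes between arms were 7.24 (SE 1.53), 5.81 (SE 1.23) and 4.49 (SE 0.86).

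Pvalb, parvalbumin, a soluble calcium buffer of fast fibres, was at 0.0416, 0 and 0.799 CPM in the controls, at 46.8, 140.3 and 358 CPM in responder 1, the unmarked tumour and responder 3, and at 11.7 and 18.2 CPM in the non-responders. It had the largest response log2 fold change of all 45 genes, 3.76 (SE 1.06), and one of the largest between arms, 8.64 (SE 1.80). Jph1, junctophilin, which holds the transverse tubule to the sarcoplasmic reticulum, was at 1.91, 1.16 and 2.73 CPM in the controls, at 4.06, 9.43 and 19.7 CPM in responder 1, the unmarked tumour and responder 3, and at 3.22 and 4.31 CPM in the non-responders. This was the smallest difference of the group (2.07 (SE 0.68)), and non-responder 2 lay above responder 1. The other 4 genes were the dihydropyridine receptor subunits Cacna1s, its voltage sensor, and Cacng1, together with the triad proteins Trdn and Sypl2. Their arm log2 fold changes ran from 3.99 to 8.46. Sypl2 had 3 counts in the 3 controls together, so its ratio of 419.9 carries a counting interval of 143.5 to 2038.

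The 4 genes of energy supply separated both comparisons (5.45% and 20.3% of all genes). Their median log2 fold changes were 7.26 between arms and 3.41 between responders and non-responders. Ckm, the cytosolic muscle creatine kinase that buffers ATP, stood at 0.208, 0.134 and 1.85 CPM in the controls, at 132, 441 and 985 CPM in responder 1, the unmarked tumour and responder 3, and at 38.2 and 62.5 CPM in the non-responders, the largest log2 fold change between arms of the 45 genes at 8.81 (SE 1.68). Pygm, muscle glycogen phosphorylase, which releases glucose units from glycogen, was at 1.41, 1.204 and 2.78 CPM in the controls, at 53.9, 174 and 441 CPM in responder 1, the unmarked tumour and responder 3, and at 19.1 and 28.2 CPM in the non-responders. Eno3, the muscle form of enolase in glycolysis, was at 13.4, 16.99 and 16.3 CPM in the controls, at 56.9, 161 and 339.8 CPM in responder 1, the unmarked tumour and responder 3, and at 28.5 and 33.02 CPM in the non-responders. All 3 controls had Eno3 above 10 CPM, and its difference was the smallest of this group, 2.99 (SE 0.90). Ckmt2, the mitochondrial creatine kinase, was at 0.0416, 0 and 0 CPM in the controls, at 5.72, 7.57 and 13.5 CPM in responder 1, the unmarked tumour and responder 3, and at 0.691 and 1.09 CPM in the non-responders. With 1 count in all controls its ratio was 428.8 (95% counting interval 76.73 to 16960), an interval that, like all of its kind here, covers counting error only.

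The make-up of the muscle signal by role differed between the arms in some groups. Thick filament genes took 10.12 to 21.8% of the summed CPM of the 45 genes in the controls and 29.53 to 34.04% in the 5 Smyd3 ASO tumours. Thin filament genes took 27.28 to 27.95% and 24.92 to 29.81%, with the controls inside the range of the Smyd3 ASO tumours. The Z-disc group took 30.72 to 43.47% in the controls against 13.16 to 21.24% in the Smyd3 ASO tumours. Its share in the controls came largely from Des, Fhl1 and Cryab, which stood between 12.3 and 21.7 CPM there. Calcium handling genes took 3.833 to 9.804% in the controls and 12.71 to 17.69% in the Smyd3 ASO tumours. Energy genes took 8.923 to 15.3% in the controls and 6.709 to 10.63% in the Smyd3 ASO tumours, an overlapping range.

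**Figure D3:**
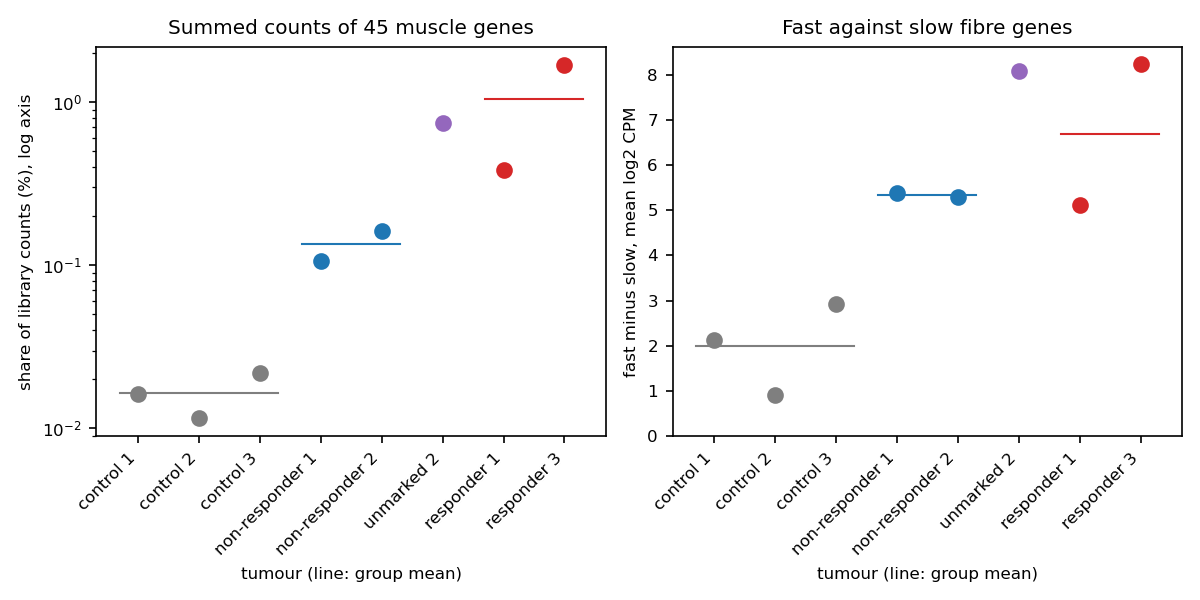
Left, the share of library counts taken by the 45 muscle genes in each tumour (percent, log axis); right, the mean log2 CPM of 4 fast genes minus that of 3 slow genes. Points are tumours and lines are group means; on the left the controls lie at 0.01154 to 0.02183% and the Smyd3 ASO tumours at 0.1059 to 1.695%, and on the right the unmarked tumour and responder 3 stand above 8 while the other Smyd3 ASO tumours lie between 5.108 and 5.394.

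Fast and slow fibre genes were compared through 4 fast genes (Myh1, Myh2, Myh4 and Tnnt3) and 3 slow genes (Myh7, Tnnt1 and Tnnc1). The fast mean minus the slow mean of log2 CPM was 2.117, 0.9121 and 2.92 in the controls, 5.108, 8.082 and 8.252 in responder 1, the unmarked tumour and responder 3, and 5.394 and 5.296 in the non-responders. Fast over slow was thus larger in each Smyd3 ASO tumour than in each control, with means of 1.983 ± 1.011 (SD, n = 3) and 6.426 ± 1.593 (SD, n = 5), a difference of 4.444. With troponins alone (Tnnt3, Tnni2 and Tnnc2 against Tnnt1, Tnni1 and Tnnc1) the values were 0.6074 to 1.275 in the controls and 3.134 to 6.738 in the Smyd3 ASO tumours. Tnni1 differed little between arms (log2 fold change 0.19), so this score mainly follows the level of the fast troponins and is not read as fibre type. In the troponin score the responders, at 4.265 and 6.738, lay above the non-responders, at 3.383 and 3.134, a difference of 2.243. In the full score they overlapped, at 6.68 ± 2.223 and 5.345 ± 0.0693 (SD, n = 2 each). The difference of 1.335 in the full score turned to −0.2375 without responder 3, because responder 1 was slightly below both non-responders. The slow genes had few counts in the controls. Their mean log2 CPM was −1.617 to −0.4006 in the controls and −0.5287 to 2.275 in the Smyd3 ASO tumours. The fast mean was −0.705 to 2.519 and 5.438 to 8.452. Between arms the full score too mainly follows the level of the fast genes and is not read as fibre type.

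The 4 adult myosin heavy chains were also compared by their share of counts, which describes transcripts, since fibres were not observed. The intervals cover counting error only, not the division of shared reads or the spread between tumours. Myh4 made up 91.93% (95% Wilson interval 91.74 to 92.11%) of their counts in responder 3 and 88.22% (95% Wilson interval 87.9 to 88.54%) in the unmarked tumour. In responder 1 it made up 18.52% (95% Wilson interval 17.9 to 19.15%). The non-responders lay between these, at 56.09% (95% Wilson interval 54.64 to 57.54%) and 45.04% (95% Wilson interval 43.89 to 46.2%). Responder 1 was instead led by Myh1, 66.95% (95% Wilson interval 66.19 to 67.7%), with Myh2 at 13.97% (95% Wilson interval 13.42 to 14.54%), whereas Myh1 was 7.096% (95% Wilson interval 6.923 to 7.274%) in responder 3. The 2 responders were therefore at the opposite ends of the Smyd3 ASO arm in their Myh4 share, and the unmarked tumour was next to responder 3.

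In the controls these shares rested on 329, 98 and 603 counts. Myh4 was 4.863% (95% Wilson interval 3.015 to 7.753%), 2.041% (95% Wilson interval 0.5615 to 7.138%) and 45.11% (95% Wilson interval 41.18 to 49.1%) there, so control 3 was near non-responder 2. Myh1 made up 75.08% in control 1, where Myh2 made up 18.24%, and 95.92% in control 2. Myh7 was 0.5626% of the 4 chains in responder 1 and at most 0.2113% in the other Smyd3 ASO tumours. The chains are close copies: of the stretches of 75 bases in its transcripts, Myh1 shared 14.7%, Myh2 13.6% and Myh4 5.96% with another of the 45 genes, and Myh7 and the other 41 genes shared none. RSEM divides such reads by estimate, so a part of the Myh1, Myh2 and Myh4 counts is uncertain.

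**Figure D4:**
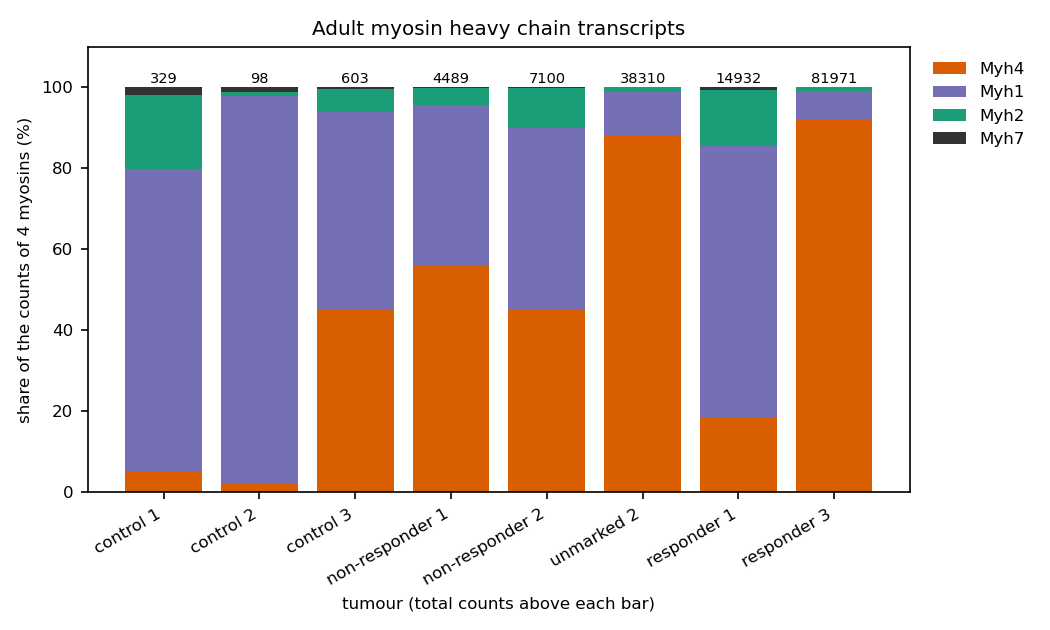
Share of the counts of 4 adult myosin heavy chains taken by Myh4, Myh1, Myh2 and Myh7 in each tumour (percent, stacked to 100), with the total counts of the 4 chains above each bar. Myh4 fills most of the bars of responder 3 (91.93%) and the unmarked tumour (88.22%), and Myh1 most of the bar of responder 1 (66.95%).

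The 2 responders were also compared gene by gene over the 45 genes, which include the heavy chains described above. Summed over the 45 genes, responder 3 was 4.399 times responder 1, and the median log2 difference was 1.81 (3.514-fold). Myh4 was far above that median at 4.61. In 7 genes responder 3 was below responder 1: Myh7 (−4.87), Myh2 (−1.54), Myoz2 (−1.21), Myh1 (−0.94), Tnnt1 (−0.70), Tnnc1 (−0.65) and Actn2 (−0.48), of which Myoz2 and Actn2 are named after their values were seen. Apart from Actn2, these encode slow proteins or the IIa and IIx chains, but the slow troponin gene Tnni1 was not among them, at 0.01. Across the 45 genes the log2 CPM profile of the unmarked tumour had a Pearson correlation of 0.991 with responder 3, the non-responders one of 0.983 with each other, responder 1 one of 0.962 with non-responder 2 and one of 0.846 with responder 3, the lowest among the Smyd3 ASO tumours. These correlations are over genes, which share each library and a wide range of base levels, and are given as descriptions. With 1 library per tumour, the comparison has no replicate check.

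**Figure D5:**
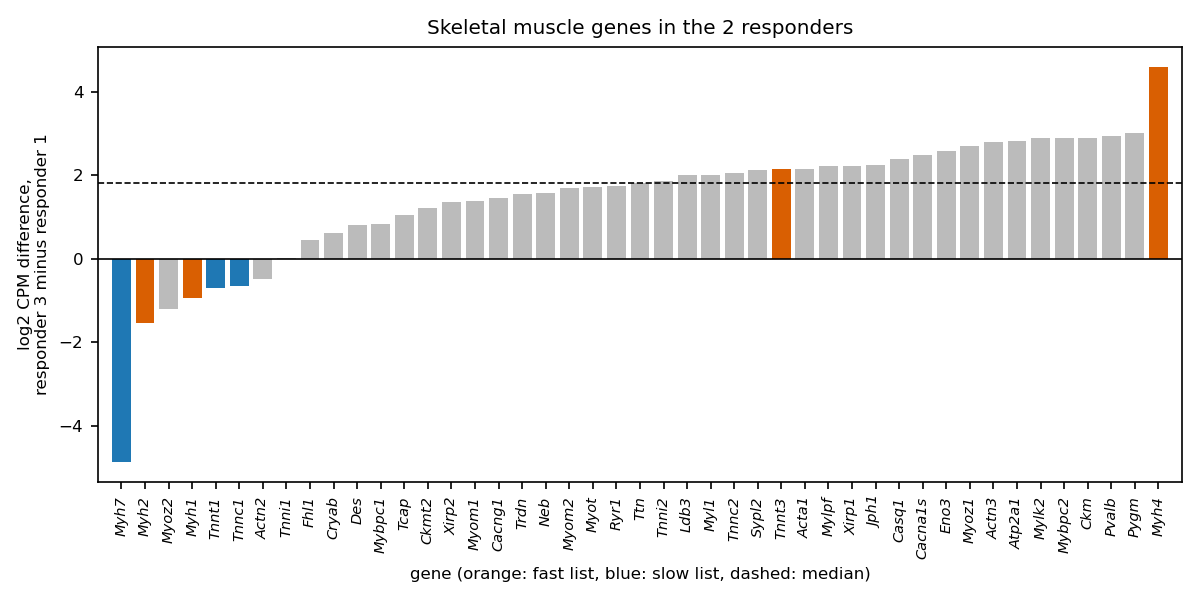
Log2 CPM of responder 3 minus that of responder 1 for each of the 45 genes, in rising order, with the 4 fast genes in orange, the 3 slow genes in blue and the median of 1.81 dashed. All 3 slow genes and the fast chains Myh2 and Myh1 lie below 0, and Myh4 is highest at 4.61.

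Myh2, Myh1 and Myh4 lie side by side on the plus strand of chromosome 11 (mm10, 67171027 to 67197517, 67200052 to 67224575 and 67238029 to 67260446), yet their levels differed between the tumours. Their promoters are shown to set these neighbours side by side, with those of Acta1, the most abundant of the 45 genes per length, and Ckm, the gene with the largest difference between arms. RefSeq promoter windows of build GRCm38.p6, which is mm10, run from 250 bases before to 50 after a start site, and 31 of the 45 genes had 1 or more. The 250 bases before the start are printed 5′ to 3′ along the gene for Myh2 (chr11:67170777-67171026, plus strand), Myh1 (chr11:67199852-67200101, plus strand), Myh4 (chr11:67237562-67237811, plus strand), Acta1 (chr8:123894776-123895025, minus strand) and Ckm (chr7:19410844-19411093, plus strand). Capitals mark matches, on either strand, to the E-box CAGCTG bound by myogenic factors, the MCAT element CATTCC of TEAD factors, the TATA sequence TATAAA, the MEF2 site or the CArG box of serum response factor.
Myh2: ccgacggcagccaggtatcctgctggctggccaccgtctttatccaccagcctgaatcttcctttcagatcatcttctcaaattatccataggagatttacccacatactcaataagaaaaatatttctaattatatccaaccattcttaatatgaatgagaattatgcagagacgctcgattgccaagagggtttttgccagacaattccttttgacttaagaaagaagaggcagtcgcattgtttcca
Myh1: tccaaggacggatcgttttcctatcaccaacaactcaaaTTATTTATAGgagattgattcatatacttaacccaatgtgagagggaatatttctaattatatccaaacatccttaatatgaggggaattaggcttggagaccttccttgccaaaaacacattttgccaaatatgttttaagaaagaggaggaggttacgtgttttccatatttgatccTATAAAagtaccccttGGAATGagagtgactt
Myh4: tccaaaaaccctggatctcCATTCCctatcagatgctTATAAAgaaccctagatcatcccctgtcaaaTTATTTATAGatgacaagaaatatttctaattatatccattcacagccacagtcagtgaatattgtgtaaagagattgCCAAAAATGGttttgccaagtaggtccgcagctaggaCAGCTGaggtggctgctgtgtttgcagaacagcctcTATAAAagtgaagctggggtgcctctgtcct
Acta1: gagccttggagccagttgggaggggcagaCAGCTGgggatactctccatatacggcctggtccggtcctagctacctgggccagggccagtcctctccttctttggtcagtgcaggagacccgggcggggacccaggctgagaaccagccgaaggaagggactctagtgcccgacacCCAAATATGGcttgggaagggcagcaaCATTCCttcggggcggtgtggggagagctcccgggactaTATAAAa
Ckm: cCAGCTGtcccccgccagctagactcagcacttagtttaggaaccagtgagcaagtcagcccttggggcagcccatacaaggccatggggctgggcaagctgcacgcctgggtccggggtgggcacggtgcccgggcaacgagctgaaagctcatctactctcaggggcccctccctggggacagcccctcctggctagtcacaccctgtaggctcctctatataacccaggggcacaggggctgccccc

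The windows of Myh1 and Myh4 shared a MEF2 match of the same 10 letters, beginning 211 and 182 bases before the start, which overlaps a TATA sequence on the other strand, and each had a TATA sequence beginning 32 and 31 bases before the start. Both also held an MCAT element, on the other strand in Myh1. Myh4 held in addition an E-box, a CArG match and a further TATA sequence. In Myh2 the single match was a TATA sequence beginning 11 bases after the annotated start, outside the letters printed. Acta1 held an E-box, a CArG match, an MCAT element and a TATA sequence, and Ckm held an E-box beginning 249 bases before the start.

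Over the 36 windows of the 31 genes, CAGCTG was found in 47.2% (16 genes), against 16.3% of all 32851 windows of the table. CATTCC was found in 27.8% (10 genes) against 14.7%, and TATAAA in 19.4% (7 genes) against 13.6%. MEF2 matches were found in 16.7% (Myh1, Myh4, Myoz2, Pvalb, Ttn and Xirp2) against 3.19%, and CArG matches in 16.7% (Acta1, Fhl1, Ldb3, Myh4 and Myom1) against 1.63%. A match describes letters in a window and shows neither binding nor use, and enhancers further away were not searched.

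Muscle genes outside the 45 were read from 5 further lists with 87 genes, of which 85 passed the count filter. By edgeR 0 of 85 passed FDR 0.05 in either comparison (0% of all genes). Between arms 78 had a log2 fold change above 0, with a median of 3.30. At an unadjusted edgeR p under 0.05, 61 were higher (8.55% of all genes), and DESeq2 called 56 in either direction (6.23% of all genes). In 55 the Smyd3 ASO tumours all lay above the controls (5.45% of all genes). Without non-responder 1 edgeR called 15 of the 86 then tested between arms, among 258 of all 16868 genes. Between responders and non-responders the median was 2.23. At an unadjusted edgeR p under 0.05, 63 were higher (4.74% of all genes), and DESeq2 called 34 in either direction (1.33% of all genes). Both responders lay above both non-responders in 72, where 20.3% of all genes tested did so. These lists were also compiled with earlier results of these tumours known.

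By role, the 22 tested sarcomere genes outside the 45 had a median arm log2 fold change of 4.16. The tropomyosins Tpm1, Tpm2 and Tpm3, which most cells use, showed 0.57, 0.33 and 0.06, and Smtnl2 was the one gene below 0 (−0.75). The 16 chaperones and turnover factors had a median of 4.12. Fbxo32, an atrophy-linked ubiquitin ligase, and Hspb8 had controls of 96.02, 122 and 103 CPM and 86.3, 72.99 and 89.95 CPM and log2 fold changes of −0.01 and 0.19, while Hspb6 showed 2.36. Smyd1, the muscle relative of the ASO target and a myosin chaperone, stood at 0.457, 0.312 and 0.631 CPM in the controls, at 8.11, 19.2 and 41.8 CPM in responder 1, the unmarked tumour and responder 3, and at 3.04 and 3.62 CPM in the non-responders, a log2 fold change of 5.004 (SE 1.09). The tumours had the same order in Smyd1 as in Acta1 within the Smyd3 ASO arm.

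The 18 further energy genes had a median of 3.59. Among the most abundant, Slc25a4, a mitochondrial ATP carrier, showed 0.38 and Pfkm, muscle phosphofructokinase, 1.80. Gys1, the glycogen synthase of muscle and many other tissues, ran the other way and stood at 136, 167 and 116 CPM in the controls, at 78.7, 69.99 and 79.1 CPM in responder 1, the unmarked tumour and responder 3, and at 72.4 and 66.5 CPM in the non-responders, a log2 fold change of −0.93 (SE 0.12) with an edgeR FDR of 0.0656. The 17 tested excitation-contraction genes had a median of 2.36, with Fkbp1a and Asph, both widely expressed, at −0.12 and −0.15 and Srl, a protein of the sarcoplasmic reticulum, at 3.30. The 12 genes of the sarcolemma and dystrophin complex had the smallest median, 0.75. Its abundant genes Dag1, Sgcb and Dysf showed −0.45, 0.06 and 0.02, and Sgcd −0.23.

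Responder 3 was below responder 1 in 10 of these 85 genes, and the median log2 difference over the 85 was 1.34. Named after their values were seen, they include Mb, the oxygen store myoglobin of oxidative fibres, at 63.1 CPM in responder 1 and 23.8 CPM in responder 3, Csrp3 at 11.7 and 6.41 CPM, and Sln, an inhibitor of the calcium pump, at 19.95 and 2.64 CPM. The slow essential light chain Myl3 stood at 1.83 CPM in responder 1 and at 0 in responder 3. Myom3, Sntb1, Chrna1, Tpm3 and Sgcb were also among the 10. The energy genes Ucp3, Fabp3, Cox7a1, Cox6a2 and Cox8b were higher in responder 3, at log2 differences of 0.40, 0.49, 0.93, 1.19 and 1.24. No fibre type is read from these genes.

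Markers of other cell types were measured beside the muscle genes, and their part in the results was not tested. Of 8 cardiac markers Nppa had 0 counts in all 8 libraries and Myh6 was at 0 in 6 of them and at most 0.0388 CPM. The cardiac list summed to 69.0 to 119 CPM in the controls and 55.4 to 165 CPM in the Smyd3 ASO tumours, most of it Tnnt2, which ran from 42.9 CPM in responder 3 to 155 CPM in responder 1. Myl4 was 2.91, 0.981 and 2.73 CPM in the controls and 4.89 to 9.93 CPM in the Smyd3 ASO tumours, and Tnni3 1.15 to 2.59 CPM throughout. The 9 smooth muscle and pericyte markers, which include Des, summed to 696 to 1136 CPM in the controls and 532 to 1034 CPM in the Smyd3 ASO tumours. Acta2 had an arm log2 fold change of −0.44, Smtn of −0.60 and Rgs5 of −0.37, and all but Des, 8 of 9, had values below 0.

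Markers of muscle stem cells and regenerating fibres were low. The 10 genes summed to 57.1 to 89.0 CPM in the controls and 49.2 to 108 CPM in the Smyd3 ASO tumours, mostly Ncam1. Of the 7 tested, 6 had every Smyd3 ASO tumour above every control (5.45% of all genes). The 7 had a median log2 fold change of 2.22 between arms and 0.33 between responders and non-responders. The embryonic chain Myh3 stood at 2.04, 0.268 and 0.926 CPM in the controls, at 5.597, 2.72 and 7.28 CPM in responder 1, the unmarked tumour and responder 3, and at 5.57 and 7.41 CPM in the non-responders, and the perinatal chain Myh8 at 1.54, 0.178 and 3.03 CPM in the controls, at 5.72, 4.46 and 11.99 CPM in responder 1, the unmarked tumour and responder 3, and at 5.44 and 9.32 CPM in the non-responders. Both separated the arms but not the responders from the non-responders. The stem cell gene Pax7 had 1 count in the 3 controls together and was at most 0.797 CPM, and Myf5 was at 0 in all controls and both non-responders.

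Markers of other tissues and cell types also differed between the tumours, and which cells made these transcripts was not tested. The 10 adipocyte markers summed to 46.7 to 66.0 CPM in the controls and 56.3 to 324 CPM in the Smyd3 ASO tumours, with responder 3 highest, as in the muscle genes. Cfd, the adipocyte factor adipsin, was at 0.0416, 0.0892 and 0 CPM in the controls, at 7.18, 0.815 and 74.5 CPM in responder 1, the unmarked tumour and responder 3, and at 0.691 and 3.35 CPM in the non-responders, while Fabp4 and Lipe, whose control levels make up much of the sums, showed log2 fold changes of 0.81 and 0.33. The median over the 9 tested adipocyte markers was 5.39 between arms and 4.04 between responders and non-responders, beside 5.44 and 2.69 in the muscle genes. Between arms all 9 were above 0, and in 3 every Smyd3 ASO tumour lay above every control (5.45% of all genes). Named after its values were seen, Adipoq, the adipocyte hormone adiponectin, was at 0.0416, 0 and 0 CPM in the controls, at 1.14, 0.0388 and 17.2 CPM in responder 1, the unmarked tumour and responder 3, and at 0 and 0.784 CPM in the non-responders. Adipoq was near 0 in the unmarked tumour, while Cfd there, at 0.815 CPM, lay between the non-responders. Whether the adipocyte and muscle transcripts go together was not tested. Of 8 hair follicle markers 7 had a row. They summed to 103 to 146 CPM in the controls and 80.0 to 584 CPM in the Smyd3 ASO tumours, with the top value in non-responder 2 (Tchh 316, Padi3 100.2 and Krt73 53.8 CPM), and the 6 tested had a median log2 fold change of 3.49 between arms, none free of overlap, and −4.42 between responders and non-responders. The 8 Schwann cell markers summed to 83.8 to 93.01 and 60.9 to 145 CPM (Mbp −0.54, Sox10 4.40 and Pmp22 −0.35 in log2 fold change), and the 8 T and NK cell markers to 23.4 to 50.4 and 39.2 to 187 CPM (Cd8a 1.92, Cd4 0.30, Gzmb 2.28), again highest in responder 3. The medians between arms and between responders and non-responders were −0.396 and 0.395 for the Schwann cell list and 1.89 and 1.34 for the T and NK cell list.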

How the data were processed

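PolyA RNA of 8 MOC1 tumours was sequenced from TruSeq stranded libraries, per the labels' protocols. The authors deposited RSEM expected counts per gene, not scaled for depth, with bcl2fastq 2.17, cutadapt 1.18, STAR 2.7.0f, RSEM 1.3.0 and build mm10 listed in the submitters' processing notes. The annotation and the settings are not given in the sources used here; all 55450 gene identifiers were found in GENCODE M21, which gave symbols, positions and exon lengths. Columns were matched to tumours through the sample descriptions.

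Expected counts were rounded (2929 to 3179 values per library were more than 1e-06 from a whole number). Genes with at least 0.424 CPM, or 10 counts in the median library, in 2 libraries and 15 counts in all were kept: 16911 genes with 99.93% of the counts. edgeR 4.0.16 in R 4.3.3 (TMM, robust quasi-likelihood F test, two-sided, Benjamini-Hochberg FDR 0.05 over all genes) compared the arms with treatment as the only term, and responders with non-responders in a model of 4 groups over all 8 libraries. DESeq2 1.42.0, other normalisations, no filter and leaving out each library were tried. The steps were tested on simulated data. Scores are means of log2 CPM with a prior count of 2. Shares carry 95% Wilson intervals, and ratios on 1 to 3 control counts exact counting intervals.

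The 45 genes and all other lists were chosen with earlier results of these data known. Named are the fast and slow genes and, by role, the gene of highest mean CPM, those of largest and smallest difference between arms and the next by mean CPM up to 5, and of each other list the 3 of highest mean CPM with up to 2 that run against its median. Promoter sequences came from RefSeq.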

Additional observations from a re-analysis of the deposited data

How the results depend on the processing

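The 45 genes had a median log2 fold change between arms of 4.701 to 6.051 in the settings tried. In 39 to 42 genes the arms did not overlap, counted with both other scalings, with no filter, with each library left out and in the 6 numbered libraries. Over all genes the same count was 921 of 16911 in the main setting and 1008 of 27883 with no filter. In the other settings it ran from 894 of 16911 (TMM without the muscle and marker lists) to 2067 of 16733 (6 numbered libraries). It thus varied more than the count over the 45. How many passed FDR 0.05 depended on the setting. edgeR called 0 of 45 between arms with TMM, with DESeq2 size factors, with TMM computed without the muscle and marker lists and with no filter, but 4 with the responder and non-responder means averaged (25 of all 16911 genes). It called 36 of 44 in the 6 numbered libraries (286 of all 16733) and 34 of 44 there with the replicate block (245 of 16733), and DESeq2 called 41 (1053 of 16911). Leaving out 1 library gave 0 to 26, the 26 without non-responder 1 (258 of all 16868 genes). Between responders and non-responders 3 were called with no filter (7 of 27883) and 18 by DESeq2 (225 of 16911), and leaving out 1 library gave 0 to 6, the 6 without responder 1 (21 of 16733). The response median ran from 1.581 to 3.407 when 1 library was left out, where a lone tumour was taken to vary like the other groups, and the fast minus slow difference from −0.2375 (without responder 3, a change of sign) to 2.906.

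Of the other muscle genes edgeR called, among the same counts over all genes, 1 between arms with no filter (52 of all 27883), 5 with the responder and non-responder means averaged, 34 in the 6 numbered libraries and 37 with the replicate block, DESeq2 called 56, and leaving out 1 library gave 0 to 15. Between responders and non-responders DESeq2 called 34 and leaving out 1 library gave 0 to 10. The cause of these differences was not tested. Deviations of same-numbered controls and Smyd3 ASO tumours correlated by −0.0344, 0.000152 and 0.0764, not every sample correlated best with its own number, and the numbers were not taken as pairs. Few counts limit the control values, where 15 of the 45 genes average under 1 CPM.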
